A study of Mus musculus with 9 samples.

Results

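Genes for 4 proteins that help odorant receptors reach the cell surface and couple to their G protein were examined in the main olfactory epithelium of mice: Rtp1, Rtp2, Reep1 and Ric8b. They were chosen by name, with earlier results of these data known, and all 4 had a row among the 24421 genes of the count table. All 4 passed the filter of at least 10 reads summed over the libraries, as did 20213 genes in all. Whole olfactory epithelium was taken from mice labelled C57BL/6 at postnatal day 14, and 1 RNA-seq library was made for each of 9 mice. The 3 groups of 3 littermates were WT (both alleles intact), het (1 allele deleted) and homo (both alleles deleted) for TAAR enhancer 1. This enhancer lies between Taar1 and Taar2 in the cluster of trace amine-associated receptors, a small family of chemosensory receptors used by some olfactory sensory neurons. The deletion was made with CRISPR-Cas9 in C57BL/6J zygotes and kept as 1 established line, so every cell of a mouse carries it. The study's materials also describe this line as of mixed C57BL/6J and 129 background and give an older age, and these descriptions were not reconciled here. The comparison asks whether the receptor trafficking and coupling genes differed when this enhancer was lost.

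An odorant receptor is made in the endoplasmic reticulum (ER) and, without help, tends to stay there. RTP1 and RTP2 (receptor transporting proteins) are accessory membrane proteins that bring odorant receptors to the cell surface. REEP1 (receptor expression enhancing protein) was found in the same kind of search and is also known as a hairpin protein that shapes ER tubules. At the ciliary membrane an activated receptor passes its signal to Golf, whose alpha subunit is encoded by Gnal, and RIC8B helps this alpha subunit fold and exchange its nucleotide.

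Rtp1 and Rtp2 are alike in sequence and lie in the same region of a chromosome, with other genes between them. In GENCODE M21 on GRCm38, Rtp1 (ENSMUSG00000033383.6) lies on the plus strand at chr16:23429133-23433960 with 2 exons, and Rtp2 (ENSMUSG00000047531.9) on the minus strand at chr16:23925548-23932394, with 2 exons in its main transcript. There are 491588 bases between them, and Rtp4 lies within that stretch. The aligned coding sequences of Rtp1 and Rtp2 were identical at 81.4% of 666 positions. The 90-base stretch below holds the longest run shared by both, 47 bases, and is shown because a read lying wholly within such a run would match both genes. Capitals mark the 11 positions at which the stretches differ, and the stretches start at coding positions 543 in Rtp1 and 435 in Rtp2.

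Rtp1: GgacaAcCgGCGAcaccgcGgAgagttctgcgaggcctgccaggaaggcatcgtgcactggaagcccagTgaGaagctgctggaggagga
Rtp2: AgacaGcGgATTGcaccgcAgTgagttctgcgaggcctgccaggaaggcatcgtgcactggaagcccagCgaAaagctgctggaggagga

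No 50-base stretch of the main transcript of any of the 4 genes occurred in a transcript of another gene, so 100% of such stretches were unique. Reep1 (ENSMUSG00000052852.8) lies at chr6:71707561-71810710 with 7 exons, and Ric8b (ENSMUSG00000035620.15) at chr10:84917616-85018337, both on the plus strand. Ric8b shares its chromosome with the Taar cluster but lies 60.8 Mb from it. Reep1 overlaps 2 same-strand transcribed loci of unknown coding status, Gm44769 and Gm44770, which have no row in the table. None of the other 3 genes overlapped another annotated gene.

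The promoters of the genes differed in base composition. A RefSeq window (GRCm38.p6) of 250 bases before the start was held for 3 of the 4 genes, Rtp2, Ric8b and Reep1. The windows of Rtp2 and Ric8b are shown because they lie far apart in their number of CG dinucleotides, which are in capitals. The Rtp2 window is chr16:23930795-23931044 on the minus strand, directly before the start of the main transcript and within an intron of a longer annotated one that starts upstream, and the Ric8b window is chr10:84917363-84917612 on the plus strand.

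Rtp2: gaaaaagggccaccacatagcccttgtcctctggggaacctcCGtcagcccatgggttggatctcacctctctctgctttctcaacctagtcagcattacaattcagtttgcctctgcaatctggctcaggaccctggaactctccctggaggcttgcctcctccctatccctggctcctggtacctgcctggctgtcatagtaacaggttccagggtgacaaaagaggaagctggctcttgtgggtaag
Ric8b: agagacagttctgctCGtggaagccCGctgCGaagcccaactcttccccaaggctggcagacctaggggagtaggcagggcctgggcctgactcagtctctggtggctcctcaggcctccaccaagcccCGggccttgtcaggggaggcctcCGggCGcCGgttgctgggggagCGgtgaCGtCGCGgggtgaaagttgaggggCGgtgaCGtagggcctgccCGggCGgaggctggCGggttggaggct

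Rtp2 had 1 CG and Ric8b 16, and the median promoter had 5. At most as many as in Rtp2 were found in 19.7% of the 27025 promoters of this length, and at least as many as in Ric8b in 25.4%. Reep1 had 6. The G and C share was 54.8% in Rtp2, 69.2% in Ric8b and 53.2% in Reep1, with a median of 52% over all promoters. Short motifs were searched on both strands. The letters CCCNNGGG, the inner part of the site of the Olf/EBF factors of olfactory neurons, occurred 1 time each in Reep1 and Rtp2 and not in Ric8b, and in 11.7% of all promoters. The Reep1 match starts 65 bases before the RefSeq start and so lies within the annotated GENCODE gene. With a T before and an A after CCCNNGGG, the motif was in none of the 3 windows and in 0.781% of all promoters. Neither TAATTA, a homeodomain core, nor CACGTG, an E-box, was in any of the 3, against 4.98% and 5.93% of all promoters.

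The libraries held 24583906 to 32631951 reads in genes, which gave 1865 or more reads for each of the 4 genes in each library. Read counts were scaled to reads per 1000000 reads in genes (CPM) with the trimmed mean of M values, whose factors ran from 0.991 to 1.00. The olfactory Taar genes summed to 44.6 to 44.9 CPM in WT, 36.3 to 38.8 in het and 19.3 to 25.3 in homo, in the order of the labelled genotypes. The tissue label was checked on 11 mature olfactory neuron genes, all of which were detected, with a summed level of 8701 CPM or more in every library. Reads of vomeronasal receptors, which belong to a neighbouring organ, stood at 67.9 CPM in het replicate 1, 119.7 in homo replicate 2 and 69.5 in homo replicate 3, against 14.6 to 17.3 in the other 6 libraries. The vomeronasal channel gene Trpc2 was at 0 in all 9, also where these receptor reads were higher. Its count thus did not follow those reads, and the reason was not tested. In whole tissue, fewer cells of a type and less RNA per cell cannot be told apart. Nothing in the labels describes pooling, and p-values measure the spread between these mice.

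Rtp1, Rtp2 and Ric8b were abundant and Reep1 was less so. Per kilobase of exon, the WT level was 190 ± 6.31 CPM for Rtp1, 129 ± 3.61 for Rtp2, 93.7 ± 3.99 for Ric8b and 18.5 ± 0.365 for Reep1 (SD, n = 3 each). The SDs are far smaller than the gaps between neighbours in this order. The places of Rtp2 and Ric8b depend on the length used, since per kilobase of the longest transcript they stood at 141.5 and 140.6 CPM in WT and at 148 and 151.6 in homo. The longest Ric8b transcript is annotated as a processed transcript, not a coding one.

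The relatives of these genes were lower than Rtp1, Rtp2 and Ric8b, but not all were lower than Reep1. Rtp4, a receptor transporter known as an interferon-induced gene, stood at 2.76 ± 0.364 CPM per kilobase in WT although it lies between Rtp1 and Rtp2 (n = 3). Rtp3 had 32 reads in all 9 libraries together and 0 in 1 of them. Ric8a, which assists other G protein alpha subunits, had 20.6 ± 0.234 CPM per kilobase against 93.7 for Ric8b and 18.5 for Reep1. Reep1 was not the highest Reep gene per length, because Reep5, a widely expressed ER-shaping gene, had 24.0 ± 1.90 (n = 3).

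**Figure D1:**
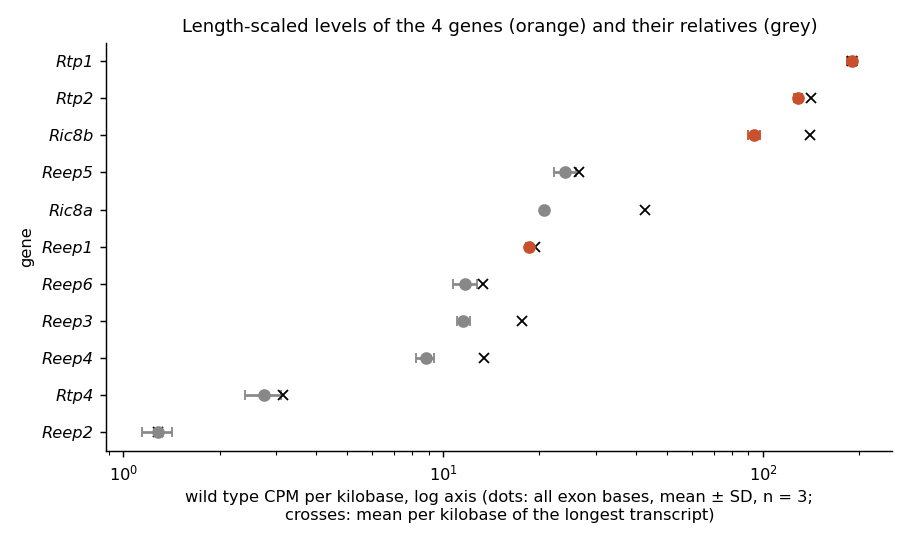
Wild type levels in CPM per kilobase on a log axis for the 4 genes and 7 relatives (dots, all exon bases, mean ± SD over 3 mice) with the level per kilobase of the longest transcript (crosses). Rtp1, Rtp2 and Ric8b lie above all relatives shown, and Reep1 lies among them, just below Reep5 and Ric8a.

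Rtp1 had the clearest separation between genotypes. Its level was 570.3, 599.6 and 607.8 CPM in the WT mice. It was 570.8, 597.3 and 619.5 in the het mice. It was 643.0, 658.5 and 661.8 in the homo mice. All 3 homo mice lay above all 6 other mice, while WT and het overlapped almost fully. The homo mean was 10.4% above the WT mean (log2 fold change 0.14 ± 0.04 SE, 95% interval 3.60 to 17.7%), with an adjusted p of 0.345 in edgeR's quasi-likelihood test and of 0.0594 in DESeq2. Against het, the homo mean was 9.83% higher (interval 3.03 to 17.1%, edgeR adjusted p = 0.298). Neither difference passed the threshold of 0.05 after Benjamini-Hochberg adjustment over 20213 genes. For any difference among the 3 genotypes, the adjusted p of Rtp1 was 0.434 in edgeR and 0.0463 in DESeq2, so the call depends on the tool. That test called 0.0643% of genes in edgeR, and in DESeq2 1.01% of the 12222 genes with an adjusted p.

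Reep1, the ER-shaping member, had a similar order. The WT mice had 74.9, 77.8 and 75.6 CPM. The het mice had 76.8, 76.8 and 82.5. The homo mice had 82.4, 85.1 and 82.8. Homo lay above WT without overlap, but het replicate 3 reached the homo range. The homo mean was 9.61% above WT (log2 fold change 0.13 ± 0.05 SE, interval 2.59 to 17.1%, edgeR adjusted p = 0.413).

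Ric8b, the Golf alpha chaperone, had a smaller gap. Its WT values were 475.3, 490.3 and 516.9 CPM. Its het values were 494.4, 491.1 and 527.5. Its homo values were 528.1, 552.1 and 519.3. The lowest homo mouse stood just above the highest WT mouse and below the highest het mouse. The homo mean was 7.88% above WT (log2 fold change 0.11 ± 0.05 SE, interval 0.720 to 15.5%, edgeR adjusted p = 0.500).

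Rtp2 overlapped between all genotypes. It stood at 334.1, 353.4 and 343.4 CPM in WT. It stood at 333.6, 358.2 and 364.8 in het. It stood at 349.7, 359.3 and 369.1 in homo. The lowest homo value was below the highest WT value, and the homo mean was 4.57% above WT (interval -2.32 to 11.9%, edgeR adjusted p = 0.712). The interval includes both no difference and one the size of Rtp1's.

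**Figure D2:**
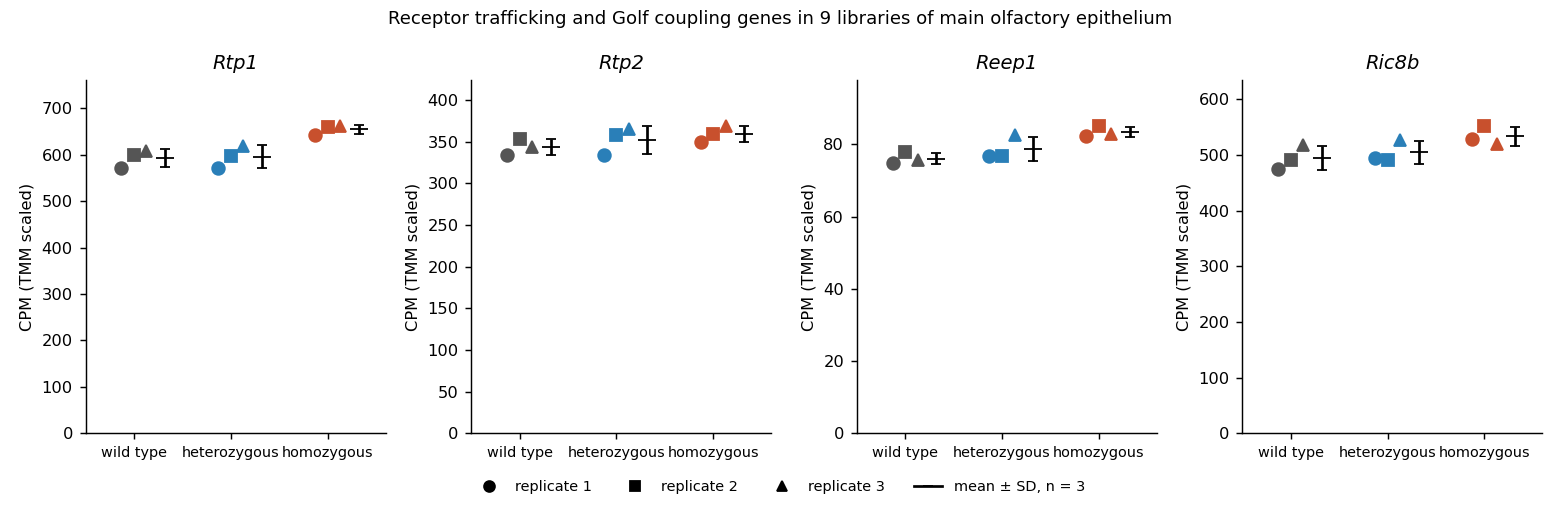
CPM of each gene in each of the 9 libraries by genotype, with bars for the mean ± SD of 3 mice; axes start at 0. Every homozygous value of Rtp1 lies above every other Rtp1 value, Reep1 and Ric8b separate homozygous from wild type mice, and Rtp2 overlaps.

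In total, homo lay above WT without overlap for 3 of the 4 genes, a pattern found in 7.46% of all tested genes, and above het for 1 of the 4 (6.41% of all genes). No gene of the 4 separated het from WT (4.36% of all genes were higher without overlap). The 3 genes that separated homo from WT were those with an unadjusted edgeR p under 0.05 in that pair, where 4.55% of all genes were higher at that level. At the same level, 1 of the 4 (Rtp1) was higher in homo than in het (4.22% of all genes) and 0 in het than in WT (1.75%). None of the 4 passed the adjusted threshold in any pair with edgeR or DESeq2, where edgeR called 0.0495% of genes for homo against WT, 0.00495% for het against WT and 0.114% for homo against het. The 3 pairs share mice. All 4 fold changes of homo against WT were above 0, although that of Rtp2 became -0.018 when libraries were scaled to mature neuron genes, and 49.8% of all fold changes were above 0. The median of the 4 was 0.12 on the log2 scale against -0.00057 over all genes.

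The het mice gave no comparable gap. The log2 fold changes of het against WT were 0.01 for Rtp1, 0.04 for Rtp2, 0.05 for Reep1 and 0.03 for Ric8b. Each had an edgeR adjusted p of 1.00. Het replicate 3 was the highest het mouse for all 4 genes.

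**Figure D3:**
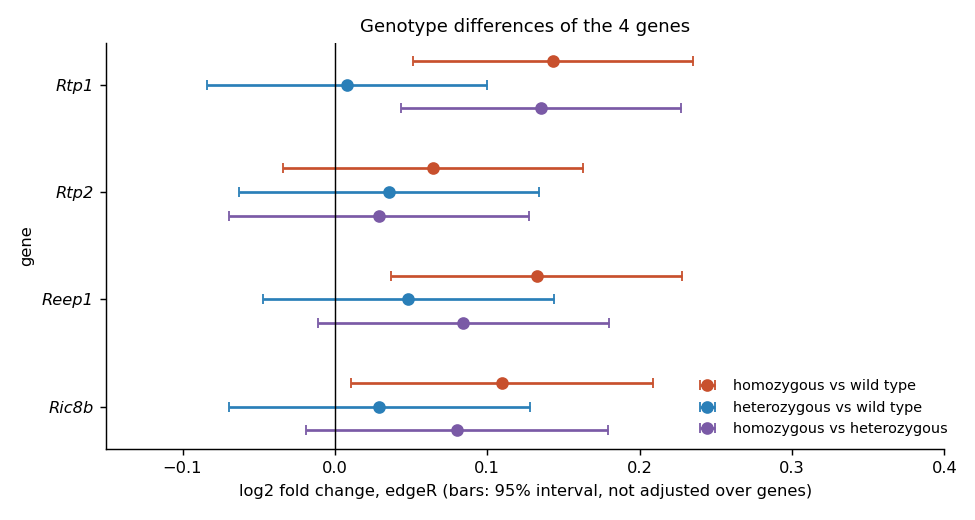
edgeR log2 fold changes of the 4 genes for the 3 genotype pairs, with 95% intervals that are not adjusted over genes. For homozygous against wild type the intervals of Rtp1, Reep1 and Ric8b exclude 0 and that of Rtp2 does not; for heterozygous against wild type all 4 include 0.

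The closely related Rtp1 and Rtp2 could be compared within each library, where sequencing depth cancels. For each 100 Rtp2 reads there were 170.7, 169.7 and 177.0 Rtp1 reads in WT. There were 171.1, 166.8 and 169.8 in het. There were 183.9, 183.3 and 179.3 in homo. The 3 homo ratios lay above all others. The share of gene pairs with such a separation was not computed, so this one cannot be set against it. The means were 172 ± 3.96, 169 ± 2.24 and 182 ± 2.47 (SD, n = 3), and the ratio was 5.62% higher in homo than in WT and 7.64% higher than in het. The two-sided exact permutation test gave p = 0.1 for both (adjusted p = 0.15 over 3 pairs), the smallest p that 3 against 3 allows, so this test cannot place the ratio past 0.05.

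The summed levels of neuron genes were also above WT in all homo mice. The summed level of the 11 mature neuron genes, among them the olfactory marker protein gene Omp, was 8922, 8946 and 8701 CPM in WT. It was 8948, 8856 and 9535 in het. It was 9462, 8979 and 9703 in homo. The lowest homo sum stood just above the highest WT sum, and het replicate 3 was again high. Of the 11 genes, 10 had a log2 fold change above 0 for homo against WT, 0 were called in edgeR or DESeq2, 2 had an unadjusted p under 0.05, and Omp had 0.12 ± 0.05 (SE, adjusted p = 0.451). The sum of all odorant receptor genes was 3023 to 3134 CPM in WT and 3144 to 3279 in homo, and that of 5 immature neuron genes 1701 to 1744 and 1809 to 1826. Each of these sums separated homo from WT, and their part in the differences of the 4 genes was not tested beyond the ratios that follow.

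Set against the mature neuron genes, the differences of all 4 genes between homo and WT were smaller. Rtp1 had 66.9 ± 2.97 reads per 1000 mature neuron reads in WT, 65.4 ± 1.87 in het and 69.8 ± 3.03 in homo (SD, n = 3). Homo was 4.33% above WT with overlap (exact permutation p = 0.4) and 6.77% above het without overlap (exact permutation p = 0.1). Rtp2 had 38.8 ± 1.18, 38.7 ± 1.62 and 38.3 ± 1.55 on this scale, with a percent difference of homo from WT of -1.203. Reep1 had 8.59 ± 0.173, 8.63 ± 0.0450 and 8.91 ± 0.505, and Ric8b 55.8 ± 3.19, 55.3 ± 0.105 and 56.9 ± 4.10. Reep1 was 3.67% and Ric8b 1.99% higher in homo than in WT. All 12 such comparisons had an adjusted p of 1. Rtp1 was the 1 gene of the 4 for which homo and het did not overlap on this scale. The share of all genes without overlap on this scale was not computed, so this count cannot be set against it. Per 100 reads of Omp alone, however, the Rtp1 ratio overlapped between homo and het, at 18.6 to 20.6 and 18.1 to 19.6. The difference was then 3.76% (exact permutation p = 0.5) and that of homo from WT 1.84% (exact permutation p = 0.8).

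**Figure D4:**
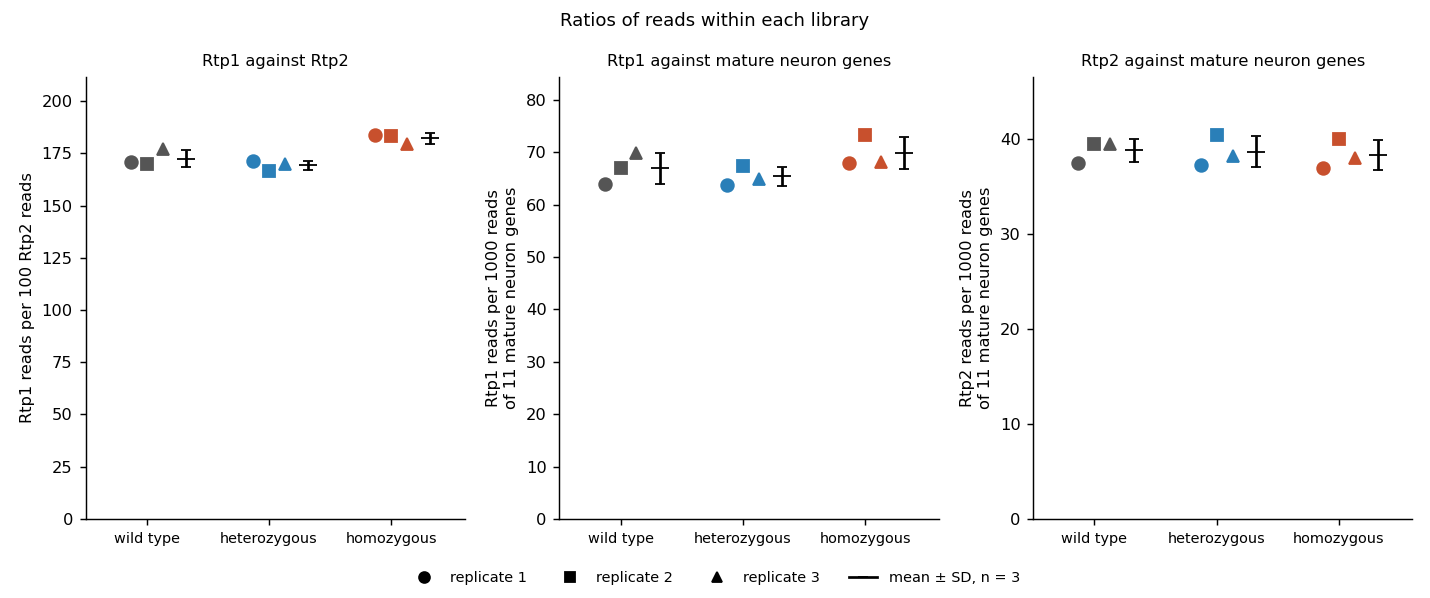
Reads of Rtp1 per 100 Rtp2 reads, and of Rtp1 and Rtp2 per 1000 reads of 11 mature neuron genes, in each library by genotype with mean ± SD bars (n = 3); axes start at 0. The homozygous Rtp1 to Rtp2 ratios of 179.3 to 183.9 lie above the other 6, while the Rtp2 ratio to neuron genes overlaps throughout. The share of gene pairs that separate in this way was not computed.

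Most marker lists of other cells overlapped between homo and WT. Connective tissue genes summed to 11405 to 13129 CPM in WT and 11175 to 12205 in homo. Sustentacular genes, which mark the supporting cells of the epithelium, summed to 9610 to 10070 in WT and 9104 to 9764 in homo. Immune genes summed to 113 to 134.3 and 110.2 to 122.9, and brain genes to 72.0 to 76.4 and 70.2 to 77.6. These ranges overlap, as did those of the globose basal, horizontal basal, respiratory ciliated and glial lists. The vomeronasal list was an exception. Its 3 genes are the channel gene Trpc2, at 0, and the G protein alpha genes Gnao1 and Gnai2. They summed to 511.7 to 536.5 CPM in WT, 509.4 to 532.2 in het and 552.5 to 579.4 in homo, so homo lay above the other 6 mice, including homo replicate 1, which had few vomeronasal receptor reads (556.6 CPM for the list). Gnao1 had a log2 fold change of homo against WT of 0.14 ± 0.04 (SE, edgeR adjusted p = 0.345, DESeq2 adjusted p = 0.0411), close to that of Rtp1, and Gnai2 had 0.02 ± 0.05. In WT, Gnao1 itself stood at 374.0 to 391.3 CPM, where vomeronasal receptors summed to 14.6 to 16.0 CPM. The sum of this list thus cannot be read as vomeronasal content. The part of this list in the differences of the 4 genes was not tested. Without the 3 libraries with vomeronasal receptor reads, which leaves 1 homo mouse assumed to vary like the others, the log2 fold changes of homo against WT were 0.12 for Rtp1, 0.02 for Rtp2, 0.11 for Reep1 and 0.09 for Ric8b. That of Rtp1 for homo against het was then 0.08, down from 0.14, and that of Rtp2 was -0.05. A fit of all 9 libraries with log2 vomeronasal receptor CPM as a covariate did not lower the values of Rtp1. For homo against WT it gave 0.16 for Rtp1, 0.08 for Rtp2, 0.14 for Reep1 and 0.11 for Ric8b. For Rtp1 in homo against het this covariate fit gave 0.14.

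Several pairs of the 4 genes correlated over the 9 mice. The within-genotype spread was small, with an SD of log2 CPM of 0.05 for Rtp1, 0.05 for Rtp2, 0.04 for Reep1 and 0.06 for Ric8b. Of all genes, 8.21%, 11.5%, 5.58% and 14.4% had a smaller one. In all, 10 relations were tested with exact permutation over the 9 libraries, which differ in genotype. Rtp1 and Reep1 correlated at r = 0.89 (exact p = 0.00192, adjusted p = 0.0188) and rho = 0.85 (exact p = 0.00607, adjusted p = 0.0276), and at r = 0.80 without homo replicates 2 and 3. Rtp1 and Ric8b correlated at r = 0.85 (exact p = 0.00438, adjusted p = 0.0188) and rho = 0.83 (exact p = 0.00827, adjusted p = 0.0276), and at r = 0.86 without the same mice. Reep1 and Ric8b gave r = 0.86 (exact p = 0.00563, adjusted p = 0.0188) and rho = 0.78 (exact p = 0.0172, adjusted p = 0.0425), and r = 0.78 without these mice.

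Rtp1 and Rtp2 gave r = 0.77 (exact p = 0.0178, adjusted p = 0.0444) and rho = 0.75 (exact p = 0.0255, adjusted p = 0.0425), but r = 0.65 with an exact p of 0.112 without homo replicates 2 and 3, so it was past 0.05 only with those mice included. Rtp2 and Ric8b had the weakest tie, at r = 0.56 (exact p = 0.121, adjusted p = 0.135) and rho = 0.48 (exact p = 0.194, adjusted p = 0.194). After subtraction of the genotype means, Rtp1 and Rtp2 gave the highest value, r = 0.87 (permutation p = 0.00232, adjusted p = 0.0232), and r = 0.70 without het replicate 1 and WT replicate 1 (permutation p = 0.0867). Permutations of such deviations moved them between genotypes, although subtraction ties the deviations within each genotype. Their p-values can therefore be too small and do not settle whether a pair passed the threshold. Rtp2 and Reep1 gave r = 0.72 (exact p = 0.0357, adjusted p = 0.0713) and rho = 0.75 (exact p = 0.0255, adjusted p = 0.0425). After the same subtraction the pairs of Rtp1 with Reep1, Rtp1 with Ric8b and Reep1 with Ric8b gave r of 0.70, 0.71 and 0.69, each with a permutation-based adjusted p of 0.0899. None of the 4 correlated with the mature neuron sum by r at the adjusted threshold. The values were 0.61, 0.60, 0.70 and 0.42 for Rtp1, Rtp2, Reep1 and Ric8b, with adjusted exact p-values from 0.0792 to 0.255. By rho, Reep1 passed (rho = 0.83, adjusted exact p = 0.0276), and its r was 0.60 without homo replicate 3 and het replicate 3 (exact p = 0.153).

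Other genes followed each of the 4 more closely over the same 9 libraries, among 13156 genes with a mean of at least 5 CPM. For Rtp1 the most alike were Snhg7 (r = 0.98), Iffo1 (0.96) and Vdac1 (0.96), and for Rtp2 they were Hrk (0.95), Pigb (0.95) and Cyb561 (0.93). Srsf2 (0.97), Ggnbp2os (0.95) and Ap1ar (0.95) were most like Reep1, and Nmnat2 (0.98) and Ubl5 (0.96) were among those most like Ric8b. With 9 points that share library and depth, such values are a description.

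The fold changes of the relatives for homo against WT lay below those of the 4 genes, but many were imprecise. Of 8 Rtp, Reep and Ric8 relatives, 0 were called by edgeR or DESeq2 in homo against WT, 0 had an unadjusted edgeR p under 0.05, 2 had a log2 fold change above 0, and the median was -0.03. Ric8a stood at -0.03 ± 0.04 (SE) and Reep5 at 0.05 ± 0.07. The flanking genes gave values of both signs. St6gal1 before Rtp1 had 0.07 ± 0.04 and Masp1 after it -0.47 ± 0.24 at 2.05 CPM in WT. Kdm3a before Reep1 had -0.10 ± 0.05 and Mrpl35 after it 0.06 ± 0.08. Bcl6 beside Rtp2 had -0.06 ± 0.05, Sst on its other side was near 0 CPM, and Rfx4 and Fhl4 beside Ric8b had -0.01 ± 0.14 and -0.05 ± 0.22. The lowest edgeR adjusted p among the 8 flanking genes was 0.514, for Kdm3a.

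The partners of these proteins were counted by role. Of 11 genes of the Golf cascade, 9 had a log2 fold change above 0 for homo against WT and 0 were called by edgeR or DESeq2, with 2 at an unadjusted edgeR p under 0.05 and a median of 0.07. Gnal, Gng13, Adcy3, Cnga2, Cnga4, Cngb1 and Ano2 are also in the mature neuron list, so the counts and medians of these lists are not independent. Gnal, the Golf alpha subunit that RIC8B assists, had 0.07 ± 0.03 (SE, edgeR adjusted p = 0.524), and Gnb1, a G protein beta subunit, 0.10 ± 0.04 (adjusted p = 0.430). Slc24a4, with the lowest p of this list in any pair, went the other way, at -0.13 ± 0.07 (edgeR adjusted p = 0.568). For homo against het Slc24a4 had -0.19 ± 0.07 (edgeR adjusted p = 0.318). Of 6 genes for surface and Golgi partners, 0 were called by edgeR or DESeq2 and 2, of opposite sign, had an unadjusted edgeR p under 0.05, as did 9.26% of all genes in either direction. Gfy, a Golgi protein of olfactory neurons, had 0.20 ± 0.08 (adjusted p = 0.451), and Chrm3, a muscarinic receptor that interacts with odorant receptors, -0.42 ± 0.18 (adjusted p = 0.499). Of 5 genes listed as ER-shaping partners of REEP1, 0 were called in edgeR for homo against WT. Of these, 3 had a log2 fold change above 0, with a median of 0.05, and 1, Rtn1, had an unadjusted p under 0.05. Rtn1, a reticulon, had 0.17 ± 0.05 (adjusted p = 0.343), and DESeq2 called it (adjusted p = 0.0464), as it did 0.788% of genes with an adjusted p in that pair.

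Of 9 genes for ER chaperones and the receptor feedback that follows receptor choice, 0 were called in edgeR, 2 had an unadjusted p under 0.05 and 6 had a log2 fold change above 0. Atf5, a transcription factor made when receptor protein loads the ER, had the lowest p of the list. Its log2 fold change of homo against WT was 0.21 ± 0.05 (SE, adjusted p = 0.237). DESeq2 called Atf5 at an adjusted p of 0.00962. So did edgeR on the WT and homo libraries alone, at 0.0297 with 0.238% of all genes called, and edgeR without het replicate 3, at 0.0342 with 0.164% called. The chaperone genes with the highest counts had both signs, with Hsp90b1 at -0.07 ± 0.04, Hspa5, which encodes BiP, at 0.04 ± 0.05 and Calr, which encodes calreticulin, at 0.06 ± 0.05. Ddit3, the stress factor CHOP and the other gene with an unadjusted p under 0.05, had 0.17 ± 0.07.

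**Figure D5:**
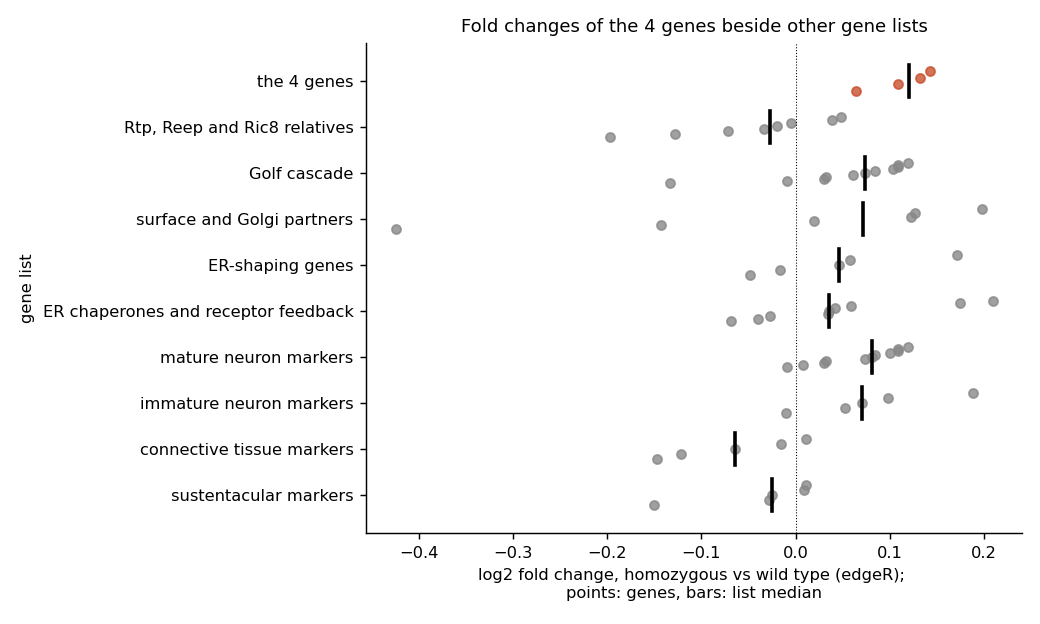
Log2 fold changes of homozygous against wild type mice (edgeR) for each gene of 10 lists, with bars for list medians. The Golf cascade and mature neuron lists share genes. The 4 genes have a median of 0.12, above the medians of the partner lists (0.04 to 0.07), the mature neuron markers (0.08) and the relatives (-0.03); no gene shown passed the adjusted threshold in edgeR.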

How the data were processed

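Per the labels and the study's methods, poly(A) RNA libraries were trimmed with Trimmomatic 0.36 and aligned to GRCm38 with HISAT2 2.1.0 by the authors. The deposited counts are raw reads per gene; the submitters' notes name HTSeq 0.6.1p1 and the methods featureCounts as the counter, and annotation and strand setting are not given in the sources used here, so reads of overlapping genes are uncertain. A second deposited table of normalized values was not used. Reads in genes made up 57.4 to 60.0% of each library's listed reads; the 5 summary rows stayed out of library sizes. Symbols turned into dates by a spreadsheet (27) stayed as rows.

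Genotypes came from the sample labels. edgeR 4.0.16 (R 4.3.3) fitted quasi-likelihood models with TMM scaling to all 9 libraries with genotype as the only term, for genes with at least 10 summed counts, and Benjamini-Hochberg adjustment ran over all tested genes. Ratios and correlations used two-sided exact permutation tests by full enumeration (numpy 2.4.6, ranks from scipy 1.17.1). These tests are not exact for deviations from genotype means. CPM per kilobase used exon bases of GENCODE M21, and likeness used log2 of CPM + 0.1. Alternatives were DESeq2 1.42.0, other scalings and filters, a replicate block and a covariate of vomeronasal receptor reads. Further ones used only the libraries compared, left out those with vomeronasal reads, or left out each library in turn. The 4 genes and all gene lists were chosen with earlier results of these data known; named list genes were among the 2 to 4 with the highest counts, the one with the lowest p in any pair and the called ones, with Ddit3 and Gnai2 added after their values were seen, and each gene's flanking genes. 1 gene among those most like Ric8b is not reported here.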

Additional observations from a re-analysis of the deposited data

How the results depend on the processing

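In none of the alternatives did any of the 4 genes pass the adjusted threshold for a pair of genotypes, and the lowest edgeR or DESeq2 adjusted p for Rtp1 in homo against WT was 0.0594. Over these alternatives the log2 fold change of Rtp1 in that pair ran from 0.06 to 0.17. DESeq2 moved the adjusted p of Rtp1 for any difference to 0.0463. Scaling to mature neuron genes turned the sign of Rtp1 (-0.033), Rtp2 (-0.0054) and Ric8b (-0.013) for het against WT, and of Rtp2 for homo against WT (-0.018) and homo against het (-0.012). Raw library sizes gave -0.000614 for Rtp1 in het against WT. Without the libraries with vomeronasal reads Rtp2 had -0.049 for homo against het. With Omp alone as the neuron measure, the Rtp2 ratio was 0.0632% higher in het than in WT and the Ric8b ratio of homo to WT differed by -0.396%. Correlations of deviations from genotype means fell below the threshold for Rtp1 with Reep1 (0.70), Rtp1 with Ric8b (0.71) and Reep1 with Ric8b (0.69), and Ric8b with the neuron sum gave -0.066. For each of these the cause was not tested. Leaving out 1 mouse at a time gave log2 ranges of -0.024 to 0.038 for Rtp1 and -0.0077 to 0.063 for Ric8b in het against WT, and of -0.0085 to 0.060 for Rtp2 in homo against het. The percent difference of the ratio to mature neuron reads ranged, for Rtp2, from -3.37 to 0.574 (homo against WT), -2.67 to 1.41 (het against WT) and -3.01 to 1.504 (homo against het). It ranged, for Reep1, from -0.674 to 1.07 (het against WT) and -0.154 to 5.34 (homo against het), and, for Ric8b, from -2.09 to 5.36 (homo against WT), -3.09 to 2.41 (het against WT) and -1.22 to 5.98 (homo against het).

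Over all genes the count called depended on the setting. For homo against WT it was 10 as reported, 66 with DESeq2, 47 with the 6 libraries alone and 33 without het replicate 3. For homo against het it was 23 as reported, 122 with DESeq2, 190 without het replicate 3 and 6 without the libraries with vomeronasal reads. Mice with the same replicate number deviated together in homo and het for replicates 2 and 3 (0.416 and 0.480) but not across all genotypes (lowest correlation -0.264), so the numbers were not taken to pair the mice. With a replicate block the counts were 12, 0 and 41 for homo against WT, het against WT and homo against het, against 10, 1 and 23 without it. With 3 mice a genotype, the 95% interval of Rtp2 for homo against WT ran from -2.32 to 11.9%, so differences within it could not be resolved.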
